A study of Mus musculus with 2 samples.

Results

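Mir221 and Mir222 are 2 microRNA genes of 1 X-linked cluster, and they are the 2 members described here out of 1973 gene rows in the miRNA count tables of mouse fetal liver. They were chosen by their GENCODE mouse names, matched to the Ensembl identifiers of the tables, and not by their counts. The tissue was whole liver of B6NCrl embryos at embryonic day 16.5, when liver is both a growing metabolic organ and the main site of red cell formation. The series held 1 group with 2 biological replicates and no treatment. Each pooled the livers of male and female embryos, 41 of them for replicate 2, and a number that the labels do not state for replicate 1. No condition was compared, so what can be asked is how abundant the pair was, how its members stood to each other, and how far the 2 libraries differed.

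MicroRNAs are short RNAs cut from hairpin precursors, and they repress messenger RNAs that pair with their seed, the bases at positions 2 to 8 from the 5′ end. miR-221 and miR-222 share a seed and are known as repressors of Kit, the receptor for stem cell factor that keeps early erythroid progenitors dividing. In cultured erythroid precursors their decline is known to accompany maturation and to relieve the repression of Kit. They are also abundant in endothelial and vascular smooth muscle cells, and they are known to repress the cell cycle inhibitors p27 and p57. In whole liver, fewer cells of a type and less RNA per cell cannot be told apart.

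The mature sequences are shown because the seed defines the pair. They are from RefSeq (build GRCm38.p6, the same mouse assembly as mm10), both members were matched by symbol, and the seed is in capitals.
mmu-miR-221-3p: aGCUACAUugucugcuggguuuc
mmu-miR-222-3p: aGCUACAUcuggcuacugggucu
mmu-miR-1928: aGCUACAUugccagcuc
mmu-miR-221-5p: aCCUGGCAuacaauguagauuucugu
The 3p arms of the pair were identical over their first 8 bases, and at 11 of 23 positions when compared position by position without gaps. Both also hold CUGGGU nearer the 3′ end, shifted by 1 base, so this comparison understates their likeness beyond the seed. Of 1738 mature miRNAs in the table, the only other one with this seed was miR-1928, identical to miR-221-3p over the first 10 bases. Its gene, Mir1928 on chromosome 1 (74206554 to 74206620), had 0 counts in both libraries, which allows up to 0.506 CPM in replicate 1 and 0.588 CPM in replicate 2. CPM are counts on the annotated strand, scaled so that all miRNA genes of a library sum to 1000000, and these limits are worth 3 counts each. The seed of the 5p arm of miR-221 occurred in no other mature miRNA of the table.

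The hairpins are shown with the listed mature arms in capitals, since the deposited counts are per hairpin and do not separate the arms.
Mir221: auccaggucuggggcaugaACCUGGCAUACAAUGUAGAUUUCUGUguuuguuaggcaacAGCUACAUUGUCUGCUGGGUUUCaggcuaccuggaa
Mir222: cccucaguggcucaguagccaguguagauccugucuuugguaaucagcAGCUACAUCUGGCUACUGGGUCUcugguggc
Mir221 (ENSMUSG00000065422.1) lies on the minus strand at chrX:19146294-19146388 of mm10, and Mir222 (ENSMUSG00000065471.1) on the same strand at chrX:19146893-19146971. The hairpins are 95 and 79 bases long and 504 bases apart, with Mir222 first in the direction of transcription. In GENCODE M21 no other gene of either strand overlapped the span of the pair, so both are intergenic. The nearest upstream gene on their strand was the noncoding gene Gm14636, 10009 bases from Mir222. The hairpins were identical at 60 of 96 aligned columns (62.5%), and neither shared an 18-base word with any other listed gene. Predicted folding energies were -42.8 kcal/mol for Mir221 and -40.7 kcal/mol for Mir222. Per base these were -0.451 and -0.515, against a median of -0.379 over 1894 listed hairpins.

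Both members were detected in both pools, and Mir221 was the more abundant. Mir221 had 1883 counts in replicate 1 and 1522 in replicate 2, and Mir222 had 751 and 638. In relation to the library totals of 5930074 and 5102289 counts, Mir221 stood at 318 CPM in replicate 1 (95% Clopper-Pearson interval 303 to 332) and 298 CPM in replicate 2 (283 to 314). Mir222 stood at 127 CPM (118 to 136) and 125 CPM (116 to 135). The lowest value of Mir221 was above the highest of Mir222, so the members did not overlap. The means were 308 ± 13.6 CPM (SD, n = 2) for Mir221 and 126 ± 1.13 CPM for Mir222. No count lay on the opposite strand of either gene in either library. These intervals cover counting error only, because PCR copies are not independent molecules.

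**Figure D1:**
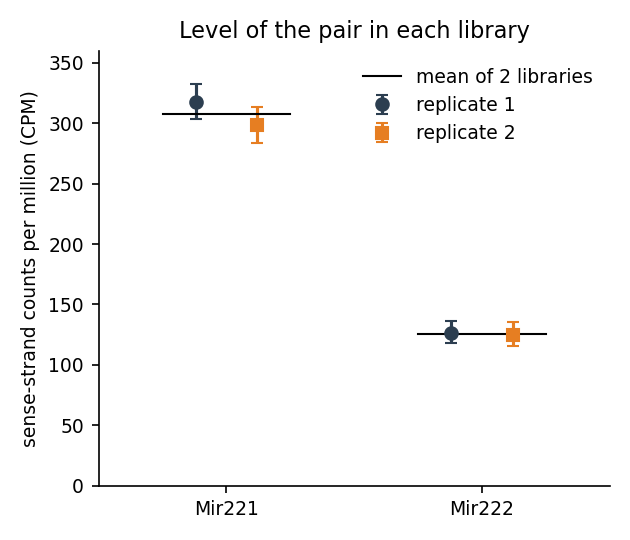
Level of Mir221 and Mir222 in CPM, with 1 point per library, 95% Clopper-Pearson counting intervals as bars and the mean of the 2 libraries as a line. Both points of Mir221 (318 and 298 CPM) lie above both points of Mir222 (127 and 125 CPM).

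The counts of Mir221 were 2.51 times those of Mir222 in replicate 1 and 2.38 times in replicate 2. On the log2 scale, with 0.5 added to each count, Mir222 was below Mir221 by a mean log2 ratio of -1.29 ± 0.05 (SD, n = 2). The ratio was -1.33 in replicate 1 (counting SE 0.06) and -1.25 in replicate 2 (counting SE 0.07). It differed between the pools by 0.07 (counting SE 0.09), which did not pass Fisher's exact test on the 4 counts (two-sided p = 0.443). Mir221 thus made up 71.5% of the counts of the pair in replicate 1 (69.7% to 73.2%, Clopper-Pearson) and 70.5% in replicate 2 (68.5% to 72.4%). With 2 libraries an exact sign-flip test of the order cannot give a p below 0.5, so none is given. Counts are of reads over a whole hairpin and were not scaled by length. Counts per base of hairpin, brought back to the CPM scale, were 253 for Mir221 and 124 for Mir222, with a log2 ratio of -1.02. Both libraries share any bias between sequences in ligation and amplification, so the ratio is one of counts.

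Neighbouring hairpins can come from 1 transcript and still give unequal counts, so the pair was set beside the other neighbours in the tables. Among the other 108 same-strand neighbours at most 10 kb apart, with 10 or more counts for each gene, the median fold between the 2 genes was 8.72 and the range 1.02 to 13165. The pair, at 2.44-fold, was more even than most: 24 of the 108 had a smaller ratio. In 43 of the other pairs at least 1 gene holds 18-base words of some other row, and its level may be too low because multimapping reads are not counted. Over the 65 pairs without such words the median was 5.72-fold, and 17 had a smaller ratio than Mir221 and Mir222. The difference of the log2 ratio between the pools, 0.07, was smaller in 23 of the 108 and had a median of 0.20. Over those 59 pairs it was smaller in 19 and had a median of 0.14. Neighbouring pairs can share a gene and are not independent, so these are descriptions without a test.

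**Figure D2:**
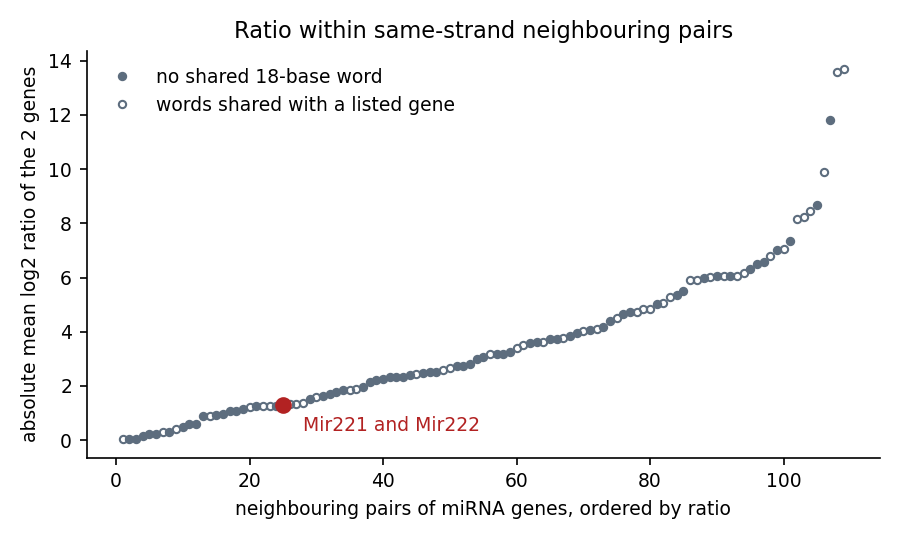
Absolute mean log2 ratio within each of 109 same-strand pairs of neighbouring miRNA genes, in increasing order along the horizontal axis; open points hold a gene that shares 18-base words with another listed gene. Mir221 and Mir222 (log2 1.29) lie in the lower part of the order, with 24 pairs below.

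In the order of all rows by mean CPM, Mir221 was at rank 130 and Mir222 at rank 172 of 1973. Both were above the median of 70.4 CPM over the 397 genes that reached 1 CPM in both libraries, and both were among the 177 genes that reached 100 CPM in both. Summed, the pair held 0.0444% of the counts in replicate 1 and 0.0423% in replicate 2, or 434 ± 14.7 CPM (SD, n = 2), a level that would place it at rank 121. Within the libraries Mir221 ranked 133 and 132, and Mir222 ranked 172 and 170. The rank by the mean can lie above the rank in either library because other genes change place between them.

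The genes directly next to the members in this order overlapped them. Directly above Mir221 was Mir501 (346 and 299 CPM) and directly below it Mir667 (336 and 277 CPM). Mir421, at rank 127, had 341 CPM in both libraries and lay wholly above Mir221. In all, the library values of 10 genes, between ranks 125 and 152, overlapped those of Mir221. Mir222 stood between Mir874 (139 and 121 CPM) and Mir675, the H19-derived miRNA (124 and 126 CPM), and 15 genes between ranks 152 and 186 overlapped it. By Euclidean distance of log2 CPM over the 2 libraries, the genes closest to Mir221 were Mir501 (0.12), Mir667 (0.13) and Mir146 (0.14; 288 and 302 CPM), a miRNA of the innate immune response. Those closest to Mir222 were Mir675 (0.03), Mir449a (0.05; 126 and 121 CPM) and Mir128-1 (0.11; 132 and 117 CPM). With 2 libraries this likeness is one of level.

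**Figure D3:**
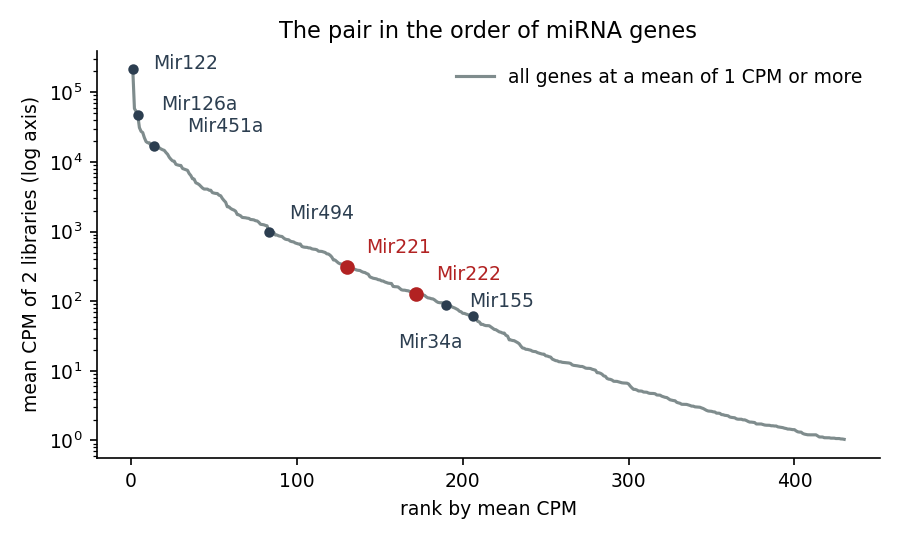
Mean CPM of the 2 libraries on a log axis against rank, for the 430 genes whose mean is at least 1 CPM, with the pair in red. Mir221 (308 CPM) and Mir222 (126 CPM) stand at ranks 130 and 172, below Mir122, Mir126a, Mir451a and Mir494 and above Mir155 and Mir34a.

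The members differed little between the pools. From replicate 1 to replicate 2 the log2 ratio of Mir221 was -0.09 (counting SE 0.05, 95% counting interval -0.19 to 0.01), and that of Mir222 was -0.02 (counting SE 0.08, -0.17 to 0.13). Neither passed the exact binomial test with Benjamini-Hochberg adjustment over all 440 genes with 10 or more counts (adjusted p = 0.134 for Mir221 and 0.913 for Mir222). So 0 of 2 members were called, against 44.5% of the genes tested (17.5% higher and 27.0% lower in replicate 2, or 77 and 119 genes) and 79.2% of the 183 with a mean of 100 CPM or more. At an unadjusted p under 0.05, 0 of 2 passed as well (exact binomial p = 0.0711 and 0.830). With edgeR TMM or DESeq2 scaling 0 of 2 were called as well, Mir221 stayed lower in replicate 2 (log2 -0.01 and -0.02), and Mir222 turned to the higher side (0.06 with either). Those scalings moved the split of calls over all genes to 96 higher and 98 lower. The test compares 2 libraries of 1 group and knows counting error only. A call thus shows that the 2 libraries differed beyond counting and not that a condition acted. Each pool gave 1 library, so the pools and the library preparation cannot be told apart.

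The size of the difference was small beside that of other genes as well. The median absolute log2 ratio over all 440 genes was 0.27, and 80 genes had a smaller one than Mir221 and 21 a smaller one than Mir222. Rare genes have large counting errors, so genes within 2-fold of each member's mean level are the closer comparison. Of 58 such genes, 14 had a smaller absolute ratio than Mir221, their median was 0.22, and 42 (72.4%) were called. Of 61 such genes around Mir222, 6 had a smaller absolute ratio, the median was 0.21, and 37 (60.7%) were called. A p that misses the threshold does not show equal levels, and the counting intervals above give the differences that the depth allows.

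**Figure D4:**
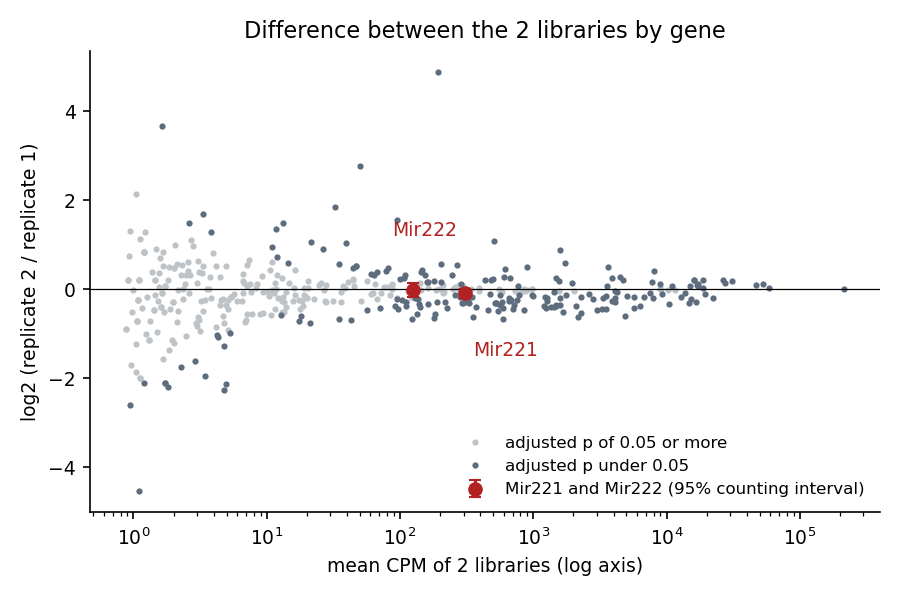
Log2 ratio of replicate 2 over replicate 1 against mean CPM (log axis) for the 440 genes with 10 or more counts; dark points have an adjusted p under 0.05 in the exact binomial test, and red points with 95% counting intervals are Mir221 (-0.09) and Mir222 (-0.02). Both lie next to 0, with called genes above and below them at the same level.

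Kit was not measured in these small RNA libraries, but its transcript shows where the seed of the pair could bind. The 7 bases complementary to the seed, ATGTAGC, were searched on the transcribed strand of the longest annotated 3′ untranslated region of each of 20983 protein-coding genes (GENCODE M21). The 8-base form ATGTAGCA, which contains the 7-base one and ends in the A favoured opposite the first base of a miRNA, was searched likewise. Kit held 2 matches in 2177 bases, both of the 8-base form. Both are shown with 28 bases of the transcript each on the plus strand of mm10, the match in capitals.
Kit, chr5:75654980-75655007: gatgggagatatATGTAGCAagactaga
Kit, chr5:75656511-75656538: gtaaatattgaaATGTAGCAataatgtc
They begin at bases 447 and 1978 of the region. Of all regions, 9.43% held the 7-base match and 3.48% the 8-base one, and of 2736 regions within 0.8 to 1.2 times the length of that of Kit, 15.2% and 5.45%. A match is a description of the sequence and shows no binding.

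The cell cycle inhibitors and other genes known as targets of the pair were searched in the same way. Cdkn1b (p27), Cdkn1c (p57) and Bbc3, the pro-apoptotic PUMA, each held 1 match, all of the 8-base form. They are shown, in the direction of the transcript, beside those of Kit.
Cdkn1b, chr6:134924419-134924446, plus strand: taaaagcattggATGTAGCAttgcgcaa
Cdkn1c, chr7:143458917-143458944, minus strand: gacctttcgttcATGTAGCAggaaccgg
Bbc3, chr7:16317319-16317346, plus strand: tttttctgcaccATGTAGCAtactggac
The 8-base form was held by 8.74% of regions of like length to that of Cdkn1b (3439 bases), 1.36% for Cdkn1c (688 bases) and 2.33% for Bbc3 (971 bases). Ets1, a transcription factor, held 2 matches with 1 of the 8-base form, which 8.31% of regions of like length held. Timp3, an inhibitor of metalloproteinases, held 1 of the 7-base form, as did 23.5% of regions of like length. Foxo3, a transcription factor, held neither form in this window, where 28.6% of regions of like length held the 7-base form and 10.9% the 8-base one. These genes were picked as known targets, so the counts are no test of the seed.

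Among the other miRNAs reported to repress Kit, 1 of the 5 with a row stood above the pair. Mir494 of the Dlk1-Dio3 locus had 1046 CPM in replicate 1 and 944 in replicate 2, which is 3.29-fold and 3.16-fold the level of Mir221. Mir34a, a target of p53, had 62.6 and 58.2 CPM and so lay 5.08-fold and 5.12-fold below Mir221. Mir193a stood at 9.27 and 6.27 CPM and Mir218-2 at 2.02 and 3.14 CPM, and Mir218-1 had 3 and 5 counts. Of the 4 genes tested, 0 were higher and 1 (Mir494, log2 -0.15, adjusted p = 3.66e-07 in the exact binomial test) was lower in replicate 2, beside 17.5% and 27.0% of all genes tested. Their median log2 ratio was -0.13, beside -0.08 over all genes tested. In the Kit region the 7-base complement of the seed occurred 2 times for miR-193a-3p (GGCCAGT), 1 time for miR-494-3p (ATGTTTC), 1 time for miR-218-5p (AAGCACA) and 0 times for miR-34a-5p (CACTGCC). Of the 2736 regions of like length, 13.8%, 21.1%, 21.6% and 22.4% held these motifs. Mir218-1 and Mir218-2 are both listed with miR-218-5p, and each shares 5.38% of its words with another row. Reads that fit both genes are not counted, so their counts may be too low and their place below the pair is uncertain.

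Set beside miRNAs of red cell formation, the pair was low. Mir451a, which is processed by Argonaute 2 in red cells, had 16467 CPM in replicate 1 and 17488 in replicate 2, or 51.9-fold and 58.6-fold the level of Mir221. Its cluster partner Mir144 stood at 6877 and 9204 CPM. Mir486, hosted by the erythroid ankyrin gene Ank1, was much closer to the pair. It had 727 and 459 CPM, or 2.29-fold and 1.54-fold the level of Mir221. Together these 3 genes of maturing red cells held 54.2-fold the summed CPM of the pair in replicate 1 and 64.1-fold in replicate 2. Of the 3, 2 were higher and 1 (Mir486) lower in replicate 2 past the exact binomial test, where 79.2% of genes whose mean reached 100 CPM were called. Their median log2 ratio was 0.09, beside -0.08 over all genes tested.

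Of 4 other miRNAs reported to fall in erythroid culture or to hold red cell maturation back, 1 was above Mir221, 1 between the members and 2 below Mir222. Mir223, a myeloid miRNA, stood at 16769 and 17529 CPM. Mir24-2 had 214 and 204 CPM, Mir155 had 83.6 and 90.9 CPM and Mir150, a lymphocyte miRNA, had 23.8 and 25.3 CPM. Mir221 thus exceeded Mir155 by 3.80-fold and 3.28-fold and Mir150 by 13.4-fold and 11.8-fold in the 2 libraries. Of these 4, 1 (Mir223) was higher and 0 were lower in replicate 2 past the test, beside 17.5% and 27.0% of all genes tested (median log2 0.08, beside -0.08). Mir24-1, also on this list, has no row, so words that Mir24-2 may share with it were not searched. Reads that fit both would not be counted, so the level of Mir24-2 and its place between the members may be too low.

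The cells that gave rise to the counts of the pair cannot be told from whole liver, so the levels of other lists are given beside it, and their part in the level of the pair was not tested. Mir126a, the endothelial miRNA, stood at 45470 and 48545 CPM, 143-fold and 163-fold the level of Mir221. The list of blood stem and progenitor miRNAs, led by Mir130a, Mir99a and Mir99b, summed to 42994 ± 866 CPM (SD, n = 2), and 8 of its 9 genes reached 100 CPM in both libraries. Of these 9, 3 were higher and 5 lower in replicate 2 past the test (median log2 -0.04), where 44.5% of all genes and 79.2% of those whose mean reached 100 CPM were called. The leukocyte list (5 genes with a row, led by Mir223, Mir342 and Mir146) summed to 18363 ± 528 CPM, with 1 higher and 0 lower (median 0.07), beside 17.5% and 27.0% of all genes. Mir142, also on the leukocyte list, has no row, so the sum leaves it out. The mesenchymal and smooth muscle list, led by Mir143, Mir214 and Mir145a, summed to 17212 ± 1464 CPM, and 3 of its 5 tested genes were higher and 1 lower (median 0.16), beside the same shares of all genes. For both of these lists, the share of 79.2% called among genes whose mean reached 100 CPM applies to their abundant members.

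The hepatocyte list and the epithelial and biliary list lay at opposite ends of this range. The hepatocyte list, led by Mir122, Mir192 and Mir194-2, summed to 220967 ± 1516 CPM, and Mir122, at rank 1, matched the labelled tissue. Of its 5 genes, 4 were higher and 0 lower in replicate 2 past the test (median log2 0.18), where 17.5% of all genes were higher and 27.0% lower, and 79.2% of those whose mean reached 100 CPM were called in either direction. The epithelial and biliary list, led by Mir429, Mir200b and Mir200c, had 4266 CPM in replicate 1 and 6376 in replicate 2. All 5 of its genes were higher in replicate 2 past the test (median 0.56), beside 17.5% of all genes. Of its genes, 4 reached 100 CPM in both libraries, and of all genes whose mean reached 100 CPM, 79.2% were called in either direction. Against these lists the summed CPM of the pair was lowest in both libraries. The list of other Kit repressors was the closest, at 2.52-fold and 2.39-fold the pair. Some sums rest mostly on 1 gene, by mean Mir122 (213914 CPM), Mir223 (17149 CPM) and Mir143 (16193 CPM). Below Mir222 lay 3 of 6 mesenchymal and smooth muscle genes and 2 of 5 leukocyte genes. So did 1 gene each of the hepatocyte, progenitor and epithelial lists. The Mir125b, Mir194, Mir146 and Mir199 genes hold words of some other row, so their levels may be too low.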

How the data were processed

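Small RNA from total RNA of 2 pools of mouse fetal liver was sequenced, within a size limit of 30 in the labels. The authors deposited raw counts per miRNA gene, 1 table per library, on assembly mm10 with GENCODE annotation M4 per the text deposited with them. Which aligner and counting program were used is not given in the sources used here, and neither is any use of molecular identifiers, so counts can hold PCR copies. The tables tally 14129766 (replicate 1) and 12186088 (replicate 2) reads. Multimapping reads were 28.1% and 28.2% of them, unmapped ones 21.8% and 21.2%, and the sense-strand counts used here 42.0% and 41.9%. The sense column is the stranded one with the larger total. Tally rows were left out. One count is worth 0.169 and 0.196 CPM.

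Names and positions are from GENCODE M21 (1894 of 1973 rows matched). Genes with at least 10 counts in the 2 libraries together were tested for a difference between them with an exact binomial test conditional on the sum (two-sided, SciPy 1.17.1), adjusted by Benjamini-Hochberg, with a threshold of 0.05; it was tested on simulated counts. A quasi-likelihood fit has no contrast in 1 group. Scalings came from edgeR 4.0.16 and DESeq2 1.42.0, folding from ViennaRNA 2.7.2. Words are of 18 bases. The members, lists and tests were chosen with earlier results of these data known. Genes named are the members, those next to each in the order, the 3 nearest by level, genes with the same seed and the 3 highest of each list; others in a list are named as examples, and target genes were listed after the files were seen; 1 of them is not reported here.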

Additional observations from a re-analysis of the deposited data

How the results depend on the processing

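No paired analysis was possible because the series has 1 group. Of 56 alternative values, 37 counted as the same by the rule for their kind of result. A tested difference had to keep its direction and call, without a check of its size. A level, rank or mean ratio had to keep its direction and move by less than the SD over the 2 libraries. A count of called genes had to stay of like size. Both members stayed uncalled in all 8 settings each, with adjusted p of 0.109 to 0.870 for Mir221 and 0.609 to 0.985 for Mir222 in the exact binomial test. The log2 ratio of Mir222 between the pools changed sign with TMM scaling (0.058) and with DESeq2 size factors (0.055). The level of Mir221 was 283 CPM irrespective of strand, 392 CPM without Mir122 in the total, 129 CPM of all reads tallied and 253 per base of hairpin, and the level of Mir222 was 116, 160, 52.8 and 124. Mir221 ranked 138 irrespective of strand, 137 per base and 129 without rows sharing at least 50% of their words, and Mir222 ranked 182 irrespective of strand and 169 without those rows. With 1 replicate left out, the level of Mir221 ranged from 298 to 318 CPM and its rank from 132 to 133, and for Mir222 from 125 to 127 CPM and from 170 to 172. The log2 ratio of the members ranged from -1.33 to -1.25 with 1 replicate left out and was -1.02 per base. Genes called numbered 183 to 206. Their share of the genes tested moved more, from 27.5% of 708 genes with 1 or more counts to 57.5% of 318 genes with 50 or more. With 638 to 1883 counts per value, differences of a few percent between the pools were not detectable.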

Other observations

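The pair is X-linked, and the pools held embryos of both sexes in proportions not given in the labels. Of 120 listed genes on the X chromosome, 21 reached 100 CPM in both libraries, and Mir221 and Mir222 were at ranks 16 and 21 among them by mean level. Of 41 X-linked genes tested between the pools, 17 (41.5%) passed the exact binomial test after adjustment over all genes, with 6 higher and 11 lower in replicate 2, beside 44.5% over all genes. Their median log2 ratio was -0.04, and the values of Mir221 (-0.09) and Mir222 (-0.02) lay on either side of it.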
